A study of Homo sapiens with 16 samples.

Results

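MGMT, ALKBH2 and ALKBH3 encode the enzymes by which human cells take alkyl groups off damaged DNA bases in a direct way, without cutting the strand. The 3 genes were picked by symbol from a table of 59081 genes. Each was present in a single entry, and all 3 passed the filter on low counts that left 20446 genes for testing. MGMT and ALKBH2 moved with INDY, MGMT downwards and ALKBH2 upwards. With harmine only MGMT of the 3 was called, and it was higher. ALKBH3 was called in no comparison.

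RNA was measured in U2OS cells, a human osteosarcoma line, that had reached confluence and were then held without serum for 48 h to bring them to rest. For the last 24 h, cells received harmine hydrochloride at 10 µM or the matching volume of water, its vehicle, and other cells received INDY at 25 µM or the matching volume of DMSO. Harmine, a beta-carboline, and INDY, a benzothiazole, inhibit the kinase DYRK1A, which is needed to assemble the DREAM repressor of resting cells. The study asked whether DREAM inhibition raises DNA repair genes. Each of the 4 groups had 4 libraries of poly(A) RNA, the compounds share no control libraries, and the labels name no alkylating agent for any group. All groups are of 1 cell line, and nothing says that the 4 replicates were separate cultures, so the p-values speak only for how far these libraries scatter, and that scatter may be technical.

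Alkylating agents put methyl groups on ring nitrogens and on the oxygen of guanine, and a methyl on that oxygen makes guanine pair with thymine. MGMT moves the methyl from guanine to a cysteine of its own and is used up by doing so, so that each protein molecule repairs a single lesion. Loss of MGMT through methylation of its promoter is well known from gliomas, where it goes with response to temozolomide. ALKBH2 and ALKBH3 belong to the AlkB family of iron- and 2-oxoglutarate-dependent dioxygenases and oxidise the methyl on adenine and cytosine until it leaves as formaldehyde. ALKBH2 acts mainly on double-stranded DNA and is found at replication foci, and ALKBH3 prefers single strands and also acts on RNA.

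Estimated counts summed to 44301910 to 65889667 per library. Harmine libraries lay together on the leading principal components of log2 CPM. On the third component, water replicates 1 and 4 stood away from the other water libraries, as did INDY replicates 1 and 3 from the other INDY libraries on the first. Every call given here for the 3 genes was also made without either of these pairs of libraries. Of 6 mesenchymal and osteoblast markers, VIM, SPARC, COL1A1, RUNX2 and ALPL were at 2.68 CPM or more in every library, and COL1A2 was at 0.194 CPM or less. Of 5 epithelial markers, the keratins KRT8 and KRT18 were at 220 CPM or more, EPCAM was at 2.17 to 4.06 CPM, CDH1 at 0.508 CPM or less and KRT19 at 0.129 CPM or less. The summed levels of 5 blood markers and of 3 endothelial markers reached at most 2.34 and 7.38 CPM. CPM set each count against its library's total, scaled by TMM. In RNA of a whole culture, fewer cells with the transcript and less transcript per cell cannot be told apart. DYRK1A, the kinase that both compounds inhibit, averaged 17.99 ± 0.869 CPM with harmine and 19.15 ± 0.748 CPM with water, and 20.9 ± 1.64 CPM with INDY and 17.7 ± 0.501 CPM with DMSO (SD, n = 4), which says nothing of its activity.

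MGMT lies on the plus strand of chromosome 10 at 129467190 to 129770983 (GRCh38), and its 5 annotated transcripts spread over 303794 bases. Its promoter is shown because methylation there is the known switch of this gene and because it differs from the promoters of the other members in base content. The 300 bases at chr10:129466991-129467290, which run from 250 bases before the RefSeq start to 50 after it (RefSeq, GRCh38.p14, plus strand), hold 45 CpG dinucleotides, more than 96.5% of 35116 promoters of the same length. Capitals mark GC boxes, the letters GGGCGG on either strand.
MGMT promoter: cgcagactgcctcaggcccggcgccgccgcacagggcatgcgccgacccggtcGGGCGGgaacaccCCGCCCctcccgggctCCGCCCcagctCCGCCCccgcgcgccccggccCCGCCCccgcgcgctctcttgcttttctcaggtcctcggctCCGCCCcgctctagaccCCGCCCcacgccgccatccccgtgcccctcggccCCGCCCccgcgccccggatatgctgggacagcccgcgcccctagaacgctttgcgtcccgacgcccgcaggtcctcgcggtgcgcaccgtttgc
There were 8 GC boxes, 1 on the plus strand and 7 on the minus strand, none overlapping another. At least 1 GC box was present in 45% of all promoters, and 8 or more in 0.812%.

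With harmine, MGMT was at 7.97, 8.31, 8.05 and 8.28 CPM in replicates 1 to 4, against 7.13, 6.48, 6.32 and 6.29 CPM with water. Every harmine library lay above every water library, and the harmine libraries were the closer to each other. The means were 8.15 ± 0.173 CPM with harmine and 6.56 ± 0.393 CPM with water (SD, n = 4 each). MGMT was 1.24-fold higher with harmine (log2 fold change 0.32, standard error 0.07, 95% interval 0.18 to 0.46, adjusted p = 0.000483 from edgeR's quasi-likelihood test). This rise was not large among the genes tested, of which 56.4% had a smaller change in size.

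With INDY, MGMT was at 4.44, 5.30, 4.71 and 4.59 CPM in replicates 1 to 4, against 6.99, 7.28, 7.03 and 6.20 CPM with DMSO. All INDY libraries lay below all DMSO libraries, with INDY replicate 2 the nearest to them. The means were 4.76 ± 0.374 CPM with INDY and 6.87 ± 0.468 CPM with DMSO (SD, n = 4 each). The level with INDY was 0.692 times that with DMSO (log2 fold change -0.53, standard error 0.07, 95% interval -0.68 to -0.39, adjusted p = 1.29e-06 from edgeR). These values rest on 215 to 293 estimated counts per INDY library and 288 to 430 per DMSO library.

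The effects of the compounds on MGMT had opposite signs and differed by 0.85 on the log2 scale, harmine minus INDY (standard error 0.10, 95% interval 0.64 to 1.05, adjusted p = 3.95e-07 from edgeR). The doses and vehicles differ, so this is a difference between the 2 treatments as given, not between the compounds at a matched dose. Between the mock-treated groups MGMT was at 6.87 ± 0.468 CPM with DMSO and 6.56 ± 0.393 CPM with water (log2 fold change 0.07, 95% interval -0.07 to 0.21, adjusted p = 0.544 from edgeR), and these libraries overlapped. In order of level, MGMT was highest with harmine, then with DMSO and water, which did not differ beyond their spread, and lowest with INDY.

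ALKBH2 is a compact gene of 5444 bases on chromosome 12 (109088188 to 109093631, minus strand), with 4 exons in its MANE Select transcript. The promoters of ALKBH2 and ALKBH3 are shown together because the 2 genes belong to the same family and only ALKBH2 was called with INDY. Capitals mark CCGGAAGT, a core of sites for ETS family factors, which was chosen after the sequences were read. The windows are chr12:109093423-109093722 on the minus strand and chr11:43880581-43880880 on the plus strand (RefSeq, GRCh38.p14), each printed 5′ to 3′ along its gene.
ALKBH2 promoter: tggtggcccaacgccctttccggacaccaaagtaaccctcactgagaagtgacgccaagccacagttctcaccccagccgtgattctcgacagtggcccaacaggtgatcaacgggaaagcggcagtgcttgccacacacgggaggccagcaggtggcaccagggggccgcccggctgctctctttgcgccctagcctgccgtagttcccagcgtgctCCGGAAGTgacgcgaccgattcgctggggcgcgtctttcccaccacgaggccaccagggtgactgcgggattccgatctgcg
ALKBH3 promoter: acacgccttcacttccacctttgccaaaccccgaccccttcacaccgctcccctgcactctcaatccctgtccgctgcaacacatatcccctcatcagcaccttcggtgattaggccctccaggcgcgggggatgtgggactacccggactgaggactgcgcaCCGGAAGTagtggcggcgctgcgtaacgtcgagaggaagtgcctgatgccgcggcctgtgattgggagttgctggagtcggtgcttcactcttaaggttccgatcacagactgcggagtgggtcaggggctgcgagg
The core begins at base -32 from the RefSeq start in ALKBH2 and at base -87 in ALKBH3, along the gene's own strand in both. GENCODE starts ALKBH2 farther upstream, at 109093631 within the printed window, so the core lies inside the gene as annotated there. Of all promoters of this length 4.14% hold it on either strand, and that of MGMT does not. The ALKBH2 and ALKBH3 windows hold 24 and 21 CpG dinucleotides. GC boxes numbered 1 in ALKBH2 and 0 in ALKBH3.

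Motifs that the study ties to DREAM were searched on both strands of the same 300 bases. The E2F-type motif, in its forms TTTCCCGC, TTTCCCGG, TTTCGCGC, TTTCGCGG, TTTGCCGC, TTTGCCGG, TTTGGCGC and TTTGGCGG, was found in none of the 3 windows and in 6.19% of all promoters. The ETS-type motif and the CREB-type motif of that set were also absent from the 3 windows (13.3% and 8.94% of all promoters). The ETS core marked above holds CGGAAG, the fixed letters of that ETS-type motif. In both ALKBH2 and ALKBH3 a flanking letter differed from the motif, so the core was not counted as a match. The MYC-type motif was searched as CACGCG and in 3 further forms, of which the first was CACGTG, the next was CTCGCG, and the last of them was CTCGTG. It occurred in the MGMT window, 29 bases after the start, and on the opposite strand of the ALKBH2 window, 11 bases after it (32.5% of all promoters). The CHR element of mitotic DREAM targets was in none of the 3, neither in its form TTTGAA (15.2% of all promoters) nor in its form TTCGAA (1.45%). The ETS core overlaps none of these matches. A match of letters is a description and not a bound site, and sites farther out were not searched. The study's own motif search reached farther before the start, so absence from these windows cannot be set beside its result.

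With INDY, ALKBH2 was at 19.4, 19.9, 18.6 and 19.9 CPM in replicates 1 to 4, against 14.3, 13.7, 11.8 and 13.0 CPM with DMSO. Every INDY library lay well above every DMSO library. The means were 19.5 ± 0.631 CPM with INDY and 13.2 ± 1.05 CPM with DMSO (SD, n = 4 each), a 1.47-fold rise (log2 fold change 0.56, standard error 0.06, 95% interval 0.44 to 0.67, adjusted p = 3.92e-08 from edgeR). Of the genes tested, 59.7% changed less in size with INDY.

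With harmine, ALKBH2 was at 12.7, 13.3, 12.3 and 12.6 CPM in replicates 1 to 4, against 12.3, 14.1, 13.1 and 12.8 CPM with water. The groups overlapped over most of their range. The log2 fold change was -0.04 (standard error 0.06, 95% interval -0.16 to 0.08, adjusted p = 0.574 from edgeR), so that changes beyond a level of 0.895 to 1.06 times that with water lie outside the interval. This value was -0.07 without water replicate 1, -0.02 without water replicate 2 and -0.08 without harmine replicate 2. The 2 effects differed by -0.60, harmine minus INDY (95% interval -0.76 to -0.43, adjusted p = 3.15e-06 from edgeR). In DMSO against water, the log2 fold change was 0.01 (95% interval -0.10 to 0.13, adjusted p = 0.904 from edgeR), and it fell below 0 without water replicate 1 (-0.01), DMSO replicate 1 (-0.03) or DMSO replicate 2 (-0.003). ALKBH2 was thus highest with INDY, and the other 3 groups, at 12.7 ± 0.437 CPM with harmine, 13.1 ± 0.751 CPM with water and 13.2 ± 1.05 CPM with DMSO, were not set apart by their spread.

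ALKBH3 lies on the plus strand of chromosome 11 at 43880811 to 43920274 and has 10 exons in its MANE Select transcript. With harmine it was at 17.9, 16.9, 16.3 and 17.0 CPM in replicates 1 to 4, against 15.8, 15.5, 15.3 and 17.2 CPM with water. Water replicate 4 lay within the harmine range and the other water libraries below it. The log2 fold change was 0.10 (standard error 0.05, 95% interval -0.004 to 0.20, adjusted p = 0.0933 from edgeR), and the interval allows from 0.997 to 1.14 times the level with water. It was 0.06 without harmine replicate 1 and also without water replicate 3.

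With INDY, ALKBH3 was at 15.99, 15.9, 15.2 and 15.7 CPM, against 17.5, 15.7, 16.4 and 16.1 CPM with DMSO. The groups overlapped through DMSO replicate 2. The log2 fold change was -0.07 (standard error 0.05, 95% interval -0.17 to 0.03, adjusted p = 0.212 from edgeR), and the interval runs from 0.891 to 1.02 times the DMSO level. Without DMSO replicate 1 it was -0.04, and without DMSO replicate 2 it was -0.09 (adjusted p = 0.121 from edgeR). The effects of the compounds on ALKBH3 differed by 0.16 on the log2 scale, which did not pass (95% interval 0.02 to 0.30, adjusted p = 0.0418 from edgeR, at a threshold of 0.01). ALKBH3 had 0.04 in DMSO against water (95% interval -0.05 to 0.14, adjusted p = 0.604 from edgeR). The means of the 4 groups lay between 15.7 and 17.1 CPM.

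**Figure D1:**
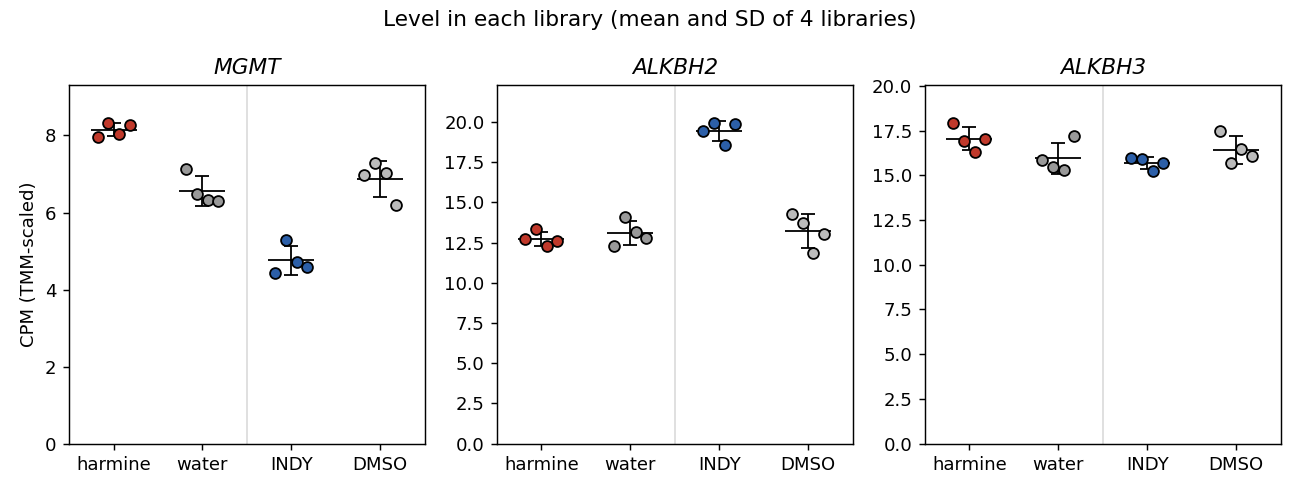
Level of MGMT, ALKBH2 and ALKBH3 in CPM (vertical axes from 0, each gene with its own scale) in each of 16 libraries, with cells given harmine (red) or INDY (blue) left of their own vehicle (grey); black bars are the mean and SD of 4 libraries. MGMT stands at 7.97 to 8.31 CPM with harmine and 4.44 to 5.30 CPM with INDY, outside the range of either vehicle, and ALKBH2 stands apart only with INDY, at 18.6 to 19.9 CPM.

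Counted over the members, 1 of 3 was called with harmine, where 47.7% of all genes tested were called. With INDY 2 of 3 were called, 1 in each direction, where 66.6% of all genes were. In the test of the difference between the effects, 2 of 3 were called (54.5% of all genes), and between the mock-treated groups 0 of 3 were (4.29% of all genes). There DESeq2 also called 0 of 3, with 715 of 20446 genes higher and 877 lower. Limma voom called 0 of 3, with 304 higher and 518 lower. In DMSO against water the unadjusted p-values from edgeR were 0.301 for MGMT, 0.8 for ALKBH2 and 0.366 for ALKBH3. Groups without overlap, read in the same way, were 1 of 3 genes with harmine (55.1% of all genes), 2 of 3 with INDY (67.5%) and 0 of 3 in DMSO against water (19.9%). With 3 genes, these counts show nothing particular to direct reversal. In an exact two-sided permutation test of 4 against 4 libraries, each of the 3 contrasts without overlap had p = 0.0286, the smallest the design allows (adjusted p = 0.0858 over 9 such tests).

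**Figure D2:**
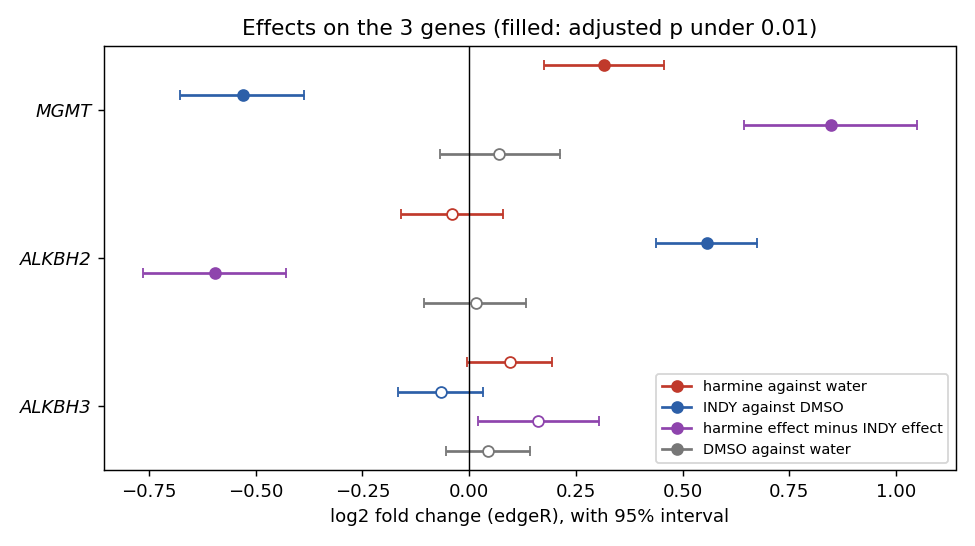
Log2 fold changes of the 3 genes with 95% intervals (horizontal axis) for harmine against water (red), INDY against DMSO (blue), the harmine effect minus the INDY effect (purple) and DMSO against water (grey), with filled points for an adjusted p under 0.01. MGMT has 0.32 and -0.53 with the compounds, ALKBH2 has -0.04 and 0.56, and all 4 values of ALKBH3 are open points.

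Per kilobase of the MANE Select transcript (4678, 1180 and 1544 nt), MGMT was the least abundant of the 3 in every group. It averaged 1.74 CPM per kb with harmine and 1.40 with water, and 1.02 with INDY and 1.47 with DMSO. ALKBH2 averaged 10.8 CPM per kb with harmine and 11.1 with water, and 16.5 with INDY and 11.2 with DMSO. ALKBH3 averaged 11.04 CPM per kb with harmine and 10.3 with water, and 10.2 with INDY and 10.6 with DMSO. MGMT has a shorter coding transcript of 1265 nt, and with that length its means would be 3.76 to 6.44 CPM per kb, still below those of the other genes at their longest. The lengths that Salmon used are not in the table, so these levels are approximate. By the MANE Select length, MGMT lay above 39.5% of 19411 genes with harmine and 36.8% with water, and above 32.9% with INDY and 37.7% with DMSO. With its shorter transcript MGMT would rank higher. ALKBH2 lay above 78.6% with INDY and 71.1% with DMSO.

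Because MGMT and ALKBH2 moved in opposite directions with INDY, their ratio differed from that of the vehicle most there. Per kilobase, ALKBH2 was 17.3, 14.9, 15.7 and 17.2 times MGMT in INDY replicates 1 to 4, against 8.10, 7.48, 6.67 and 8.34 times in DMSO. With harmine the ratio was 6.32, 6.36, 6.06 and 6.02, against 6.85, 8.61, 8.25 and 8.04 with water. The means were 16.3 ± 1.19 with INDY and 7.65 ± 0.743 with DMSO, and 6.19 ± 0.173 with harmine and 7.94 ± 0.763 with water (SD, n = 4). In both pairs of groups the ratios did not overlap, which follows from the changes of single genes given above and is no further test. The ratios rest on the MANE Select lengths. With the MGMT transcript of 1265 nt all of them would be smaller.

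The wider repair of alkylated bases was covered by 25 genes in 4 lists written from general knowledge, all of them tested. With harmine 9 were higher and 3 lower, and with INDY 8 were higher and 7 lower. These 12 and 15 of 25 genes are to be read against the 47.7% and 66.6% of all genes. The lists are given in turn, each by its counts and its median.

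Among the 7 other AlkB-family genes, harmine gave 3 higher and 1 lower, and INDY likewise gave 3 higher and 1 lower. Their median log2 fold changes were 0.11 with harmine and 0.001 with INDY, beside 0.015 and -0.008 over all genes tested. ALKBH1, which acts on tRNA and mitochondrial DNA or RNA, was called as ALKBH2 was, at 28.3 ± 0.83 CPM with INDY and 20.4 ± 0.774 CPM with DMSO (log2 fold change 0.47, adjusted p = 3.49e-09 from edgeR). Its log2 fold change with harmine was -0.04 (adjusted p = 0.423). ALKBH4, a demethylase of actin, fell with harmine (-0.24, adjusted p = 0.000326) and had 0.001 with INDY (adjusted p = 0.981). ALKBH6 was lower with INDY (-0.29, adjusted p = 0.00888), while its value for harmine was -0.20 (adjusted p = 0.0699). Another annotated gene holds 17.1% of the 100-nt stretches of ALKBH6, so its counts are uncertain. To a lesser degree this also holds for MGMT and for XRCC1 of a later list. A gene annotated within MGMT, at 0 counts in every library, holds 4.67% of the stretches of MGMT. For XRCC1 the share held by another gene is 4.14%.

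Partners of ALKBH3 and the enzymes that stabilise both AlkB proteins formed the second list. Of these 8 genes harmine raised 0 and lowered 1, and INDY raised 3 and lowered 4 (medians -0.08 and -0.11). Over all genes tested, 47.7% were called with harmine and 66.6% with INDY. ASCC3, the helicase that unwinds DNA for ALKBH3, fell to 72.7 ± 2.95 CPM with INDY, against 93.5 ± 1.69 CPM with DMSO (log2 fold change -0.36, adjusted p = 1.64e-08 from edgeR), and its partner ASCC1 fell too (-0.42, adjusted p = 2.11e-08). With harmine the values were -0.06 for ASCC3 (adjusted p = 0.134) and 0.01 for ASCC1 (adjusted p = 0.774). OTUD4, which holds the deubiquitinases that protect ALKBH2 and ALKBH3 from degradation, fell to 80.6 ± 1.48 CPM with harmine, against 102 ± 4.63 CPM with water (-0.34, adjusted p = 8.13e-08), and had 0.04 with INDY (adjusted p = 0.3). RNF113A, a ubiquitin ligase of the ASCC pathway, was lower with INDY (-0.26, adjusted p = 0.0053), and its uncalled value for harmine was -0.21 (adjusted p = 0.0269).

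Base excision, another route that removes alkylated bases, was represented by 6 genes. Harmine raised 3 and lowered 1, and INDY raised 2 and lowered 1 (medians 0.24 and 0.09). Of all genes tested, 24.9% were called higher with harmine and 33.2% with INDY. MPG, the glycosylase that cuts out methylated adenine, rose with both compounds, to 85.5 ± 3.95 CPM with harmine, against 64.6 ± 2.25 CPM with water (0.41, adjusted p = 7.16e-08 from edgeR), and to 82.4 ± 2.78 CPM with INDY, against 66.6 ± 3.03 CPM with DMSO (0.31, adjusted p = 1.27e-06). XRCC1, the scaffold of the later steps, had the largest rise of the 25 genes with harmine (0.67, adjusted p = 7.26e-11) and 0.02 with INDY (adjusted p = 0.731). The abasic site nuclease APEX1 rose with harmine (0.47, adjusted p = 1.04e-08) and had 0.06 with INDY (adjusted p = 0.205). LIG3, the ligase that works with XRCC1, was lower with harmine (-0.23, adjusted p = 8.38e-05) and with INDY (-0.37, adjusted p = 1.26e-07).

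Mismatch repair reads the mispairs that unrepaired methylguanine makes, and through it the lesion that MGMT removes becomes toxic. Of 4 such genes harmine raised 3 and lowered 0, and INDY raised 0 and lowered 1 (medians 0.28 and -0.12). Among all genes tested, harmine raised 24.9% and INDY lowered 33.4%. MSH6, a subunit of the sensor of mispairs, rose to 241 ± 2.68 CPM with harmine, against 186 ± 8.79 CPM with water (0.38, adjusted p = 1.24e-06 from edgeR), and had -0.06 with INDY (adjusted p = 0.274). PMS2 had 0.05 with harmine (adjusted p = 0.447) and -0.14 with INDY (adjusted p = 0.0277), and its counts are uncertain because 8.17% of its 100-nt stretches also occur in PMS2CL or another gene. The exonuclease gene EXO1 moved as MGMT did in sign, with 0.48 for harmine (adjusted p = 2.22e-06) and -0.51 for INDY (adjusted p = 7.67e-07), a difference of 1.00 between the effects (adjusted p = 1.94e-08).

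**Figure D3:**
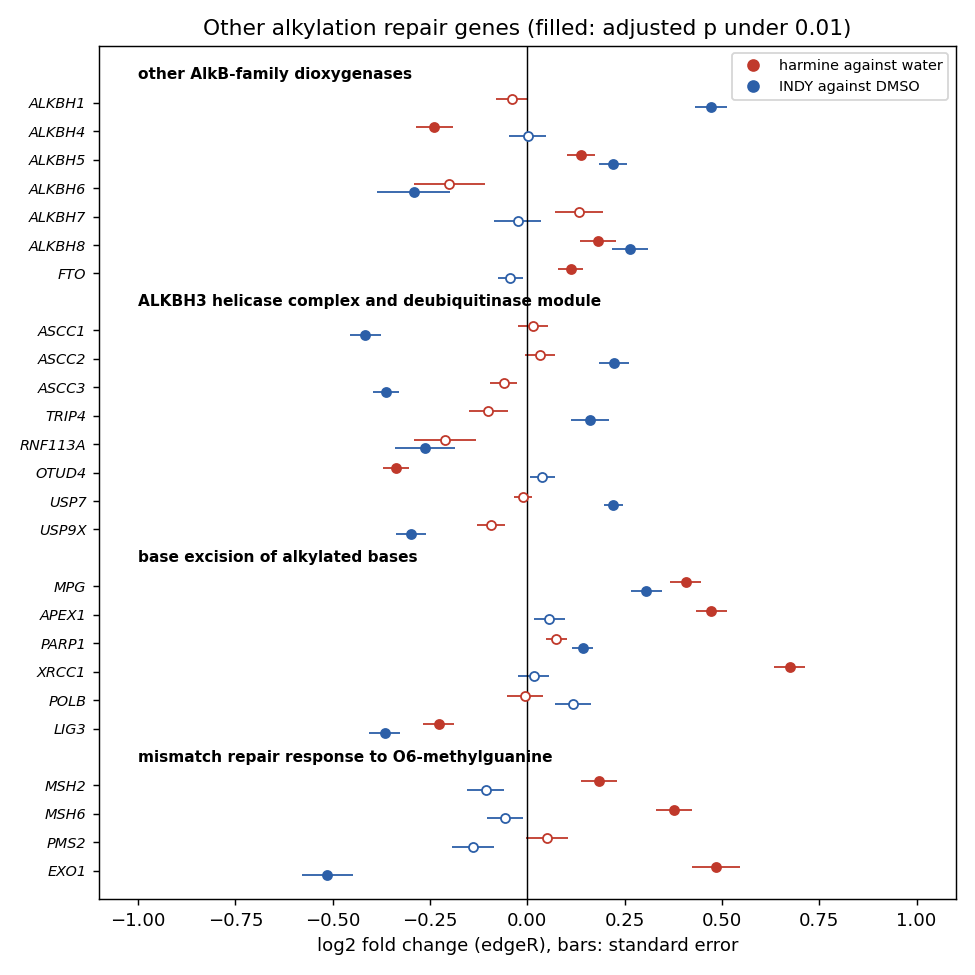
Log2 fold changes (horizontal axis, bars are the standard error) of 25 other genes of alkylation repair in 4 lists, for harmine against water (red) and INDY against DMSO (blue), with filled points for an adjusted p under 0.01. Of the 4 mismatch repair genes, 3 are filled with harmine, all to the right of 0, and EXO1 alone is filled with INDY, at -0.51. Over all genes tested, 24.9% were called higher with harmine and 33.4% lower with INDY.

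The genes whose log2 CPM over the 16 libraries was most like that of each member were taken from 13007 genes of adequate level. The libraries fall into groups by treatment, so a high r shows a like order of the groups more than of single libraries. For MGMT they were GEMIN4 (Pearson r = 0.975), a subunit of the SMN complex, QTRT1 (0.975), which puts queuine into tRNA, and SFT2D3 (0.973). QTRT1 was at 25.0 ± 0.661 CPM with harmine and 19.6 ± 0.808 CPM with water, and at 12.8 ± 1.37 CPM with INDY and 20.3 ± 0.235 CPM with DMSO. For ALKBH2 they were CCDC12 (0.976), EFHD2 (0.974) and POP1 (0.974), a protein of RNase P. EFHD2 was at 120 ± 3.35 CPM with INDY and 78.3 ± 2.07 CPM with DMSO. For ALKBH3, which was called in no comparison, the values were lower, with C1orf226 (0.768), HARBI1 (0.758) and TMEM245 (0.747).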

How the data were processed

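Groups and replicate numbers came from the sample labels. The authors made the deposited estimated counts per gene with Salmon 1.1 using transcripts of GENCODE 37, a decoy of the GRCh38 genome and corrections for GC and sequence bias, and tximport then gave gene sums. Their processing notes also list edgeR 3.28.1. Reads were not reprocessed.

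Estimated counts were rounded, genes were kept by filterByExpr, libraries were scaled by TMM, and tests were run in a single model of 4 groups with edgeR 4.0.16 (glmQLFit, glmQLFTest) in R 4.3.3, with Benjamini-Hochberg adjustment over 20446 genes and a threshold of 0.01. A prior count of 2 was added for log2 CPM. Intervals are 95% intervals from the same fit. Locations and lengths are from GENCODE 44 (GRCh38), to which 56629 of 59081 identifiers matched, and promoters from RefSeq (3 of 3 members matched). Code was tested on simulated data. The members, the gene lists and the tests were chosen with earlier results of these data known. Named genes are the 3 members, the 2 members of each list with the largest change per compound, the 3 genes most like each member (clone-based symbols left out, mean log2 CPM of at least 1) and the chromosomal neighbours. Lists came from general knowledge, 1 gene of the mismatch repair list is not reported here, and cell type markers are named only as a check of the cells.

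Alternatives were DESeq2 1.42.0, limma voom 3.58.1, 2 other scalings, 2 other filters, a threshold of 0.05, the 8 libraries of a comparison alone, the replicate number as a block, each library left out, CPM on raw totals and a prior count of 0.5. Fits without water replicates 1 and 4 or INDY replicates 1 and 3 were added after seeing the data.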

Additional observations from a re-analysis of the deposited data

Results flagged for a closer look

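The effects of the compounds differed for MGMT, by 0.85 on the log2 scale, harmine minus INDY (adjusted p = 3.95e-07 from edgeR), with all 4 harmine libraries above all 4 water libraries and all 4 INDY libraries below all 4 DMSO libraries. For ALKBH2 the effects differed by -0.60 (adjusted p = 3.15e-06 from edgeR), with all 4 INDY libraries above all 4 DMSO libraries and harmine libraries among those of water. Both tests compare harmine at 10 µM in water with INDY at 25 µM in DMSO, so compound, dose and vehicle cannot be told apart. In 12 sets of 4 libraries (3 genes in 4 groups), 0 had a library far from the others by Dixon's criterion.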

How the results depend on the processing

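The calls of MGMT (higher with harmine, lower with INDY) and ALKBH2 (higher with INDY) were kept in all 27 alternatives, and the differences between the effects of both genes in all 26. The threshold of 0.05 could not have lost a call made at 0.01. For the effect of a single compound, leaving out a library of the other compound or its vehicle acts only through the shared filter, scaling and spread. MGMT ranged over 0.28 to 0.36 with harmine and -0.58 to -0.47 with INDY, and ALKBH2 over 0.51 to 0.60 with INDY. ALKBH3 was called once, for the difference between the effects at a threshold of 0.05 (0.16), and its adjusted p was 0.0104 to 0.131 over the alternatives. For ALKBH2 in DMSO against water, which was never called, the log2 fold change was -0.025 to 0.067 with 1 library left out and -0.04 with water replicates 2 and 3 only.

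In DMSO against water, 323 genes were higher and 554 lower. The counts were 1058 and 1326 at a threshold of 0.05, 715 and 877 with DESeq2, 15 and 106 with water replicates 2 and 3 only, 744 and 925 with INDY replicates 2 and 4 only, and 88 to 576 and 237 to 781 with 1 library left out. The cause was not tested. Counts for both compounds stayed within 1.5 times under every alternative run.

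Samples with the same number deviated little together (r -0.053 to -0.007 for harmine and water, -0.019 to 0.087 for INDY and DMSO). For INDY replicates 1, 2 and 4 the DMSO library most alike was nonetheless that of the same number. The same held for DMSO replicates 2 and 3 among water libraries, and for no harmine replicate. These values do not settle whether the numbers pair the samples. With the replicate block, MGMT had 0.317 and -0.531 and ALKBH2 0.558 with INDY, and no call of the 3 genes changed. The fit of 8 libraries could not be run for the difference between the effects. The genes most like each member were the same 3 with a prior count of 0.5. MGMT, at 215 to 442 counts per library, had the widest intervals of the 3 genes.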

Other observations

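The genes next to the members on their chromosomes did not share their changes throughout. ALKBH2 faces USP30, a mitochondrial deubiquitinase gene whose annotated end lies 164 bases from that of ALKBH2 on the opposite strand. USP30 was higher with INDY (17.9 ± 0.703 CPM, against 12.6 ± 0.532 CPM with DMSO, log2 fold change 0.50, adjusted p = 5.17e-08 from edgeR) and also with harmine (14.0 ± 0.941 CPM, against 11.2 ± 0.359 CPM with water, 0.32, adjusted p = 3.93e-05), where ALKBH2 had -0.04. The library kit marks strand, but the sources used here do not say whether counting used it, so that reads of these adjoining ends may not be fully told apart. On the other side, 3965 bases away, UNG, the uracil glycosylase, rose with harmine (0.71, adjusted p = 1.82e-09) and had 0.16 with INDY (adjusted p = 0.0128).

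HSD17B12, below ALKBH3 on chromosome 11, fell with both compounds (-0.29 and -0.48, adjusted p = 2.07e-05 and 1.87e-08 from edgeR), while ALKBH3 was not called. The protein-coding genes nearest to MGMT are far from it, MKI67 at 1340766 bases and EBF3 at 64249 bases. MKI67 had 0.03 with harmine and -0.07 with INDY, and EBF3 had 0.15 and -0.18 (adjusted p of 0.146 to 0.739 from edgeR). MKI67 averaged 251 ± 3.0 CPM with harmine and 246 ± 26.4 CPM with water, and 267 ± 21.4 CPM with INDY and 281 ± 10.1 CPM with DMSO. The genes annotated within MGMT and the antisense gene ALKBH3-AS1 had at most 1 count in any library. SEC14L1P1, a pseudogene within ALKBH3 on the same strand, had 23 to 75 counts per library and was not called (adjusted p = 0.0699 with harmine and 0.0224 with INDY).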
